A study of Mus musculus and Rattus norvegicus with 32 samples.

Results

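Translation initiation and elongation factors were followed through 4 tables of gene counts from a study of METTL5, the enzyme that methylates an adenosine of the RNA of the small ribosomal subunit. Members were chosen by name alone. Every gene was taken whose symbol began with Eif and a digit from 1 to 6, or with Eef and a 1 or 2, and the Eif2ak kinases, Eif2s3x, Eif2s3y and names marked as pseudogenes were left out. The rule found 66 of the 55487 genes in each mouse table and 61 of the 32883 genes in the rat table, 69 symbols in all, of which 58 were listed in both species. Each table held 4 control and 4 treated libraries. The first compared whole hearts of C57BL/6 mice at 1 month of age labelled Mettl5-KO, with no promoter named for the deletion, with controls. The second compared hearts at 3 months from mice titled Mettl5-cKO (genotype label Mettl5-KO), in which Myh6-Cre, driven by a promoter of heart muscle cells, removes floxed exons of METTL5, with control littermates. The third compared the same genotypes 4 weeks after transverse aortic constriction (TAC), an operation that puts the left ventricle under pressure overload, with an age label of 3 months. They are called METTL5-KO and METTL5-cKO from here on. Sham-operated hearts were not analysed here, so the operation is shared by both groups of that table. The fourth compared neonatal rat ventricular cardiomyocytes (NRVMs), prepared from Sprague Dawley pups at postnatal day 2, that received adenovirus with human METTL5 (AdMETTL5) or with GFP (AdGFP), all under 20 μM phenylephrine (PE), a hypertrophic stimulus, for 24 h.

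Initiation factors bring the initiator tRNA, the mRNA and the small ribosomal subunit together. eIF2 carries the initiator tRNA and is recharged by eIF2B, eIF1, eIF1A and eIF5 guard the choice of the start codon, and eIF3 is the large scaffold on the small subunit. The eIF4F complex joins the cap-binding protein eIF4E, the scaffold eIF4G and the helicase eIF4A, with eIF4B and eIF4H as helper proteins, and the 4E-binding proteins keep eIF4E away from eIF4G until mTORC1 phosphorylates them. In elongation, eEF1A delivers aminoacyl-tRNA, the eEF1B subunits recharge it, and eEF2 moves the ribosome along. Adult heart and skeletal muscle use the isoform eEF1A2, while most other cells use eEF1A1. All values here are levels of mRNA, and neither the proteins nor their phosphorylation were measured.

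The promoters of some members held a motif that the choice by name did not use. RefSeq starts on GRCm38.p6 were found for 49 members, each with the 250 bases before and 50 bases after the start. The E-box CACGTG, the recognition letters of MYC and its relatives, searched on both strands (it reads alike on each), stood in 14 of these 49 genes (28.6%), against 9.18% of all protein-coding genes and 8.09% of all genes with such a window. No member held TGATGNAAT, the element of C/EBP and ATF dimers, on either strand, against 0.932% of protein-coding genes. A start with C followed by 4 or more pyrimidines was found in 2 members (4.08%, against 2.71%), Eif3f and Eif2c5, the latter with 0 counts in every mouse library. This match was sought only at the annotated start base, so a start used a few bases away would be missed. These are matches of letters within these windows, and no binding was measured. The stretches before the start of members of the cap-binding group, its helper Eif4h and Eef2 are shown because later comparisons turn on these genes. Each is 30 bases, 5′ to 3′ on the strand of its gene, with the E-box in capitals. The Eif4e stretches lie at chr3:138527028-138527057 and chr3:138527192-138527221 (plus strand), that of Eif4g1 at chr16:20672661-20672690 (plus), of Eif4a1 at chr11:69672595-69672624 (minus), of Eif4h at chr5:134639488-134639517 (minus) and of Eef2 at chr10:81176576-81176605 (plus). Eif4g1 held a second E-box after its start, at chr16:20672730-20672759, which is not printed.
Eif4e, first: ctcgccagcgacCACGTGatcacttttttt
Eif4e, second: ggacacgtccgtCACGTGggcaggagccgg
Eif4g1: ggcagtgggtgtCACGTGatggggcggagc
Eif4a1: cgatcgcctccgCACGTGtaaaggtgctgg
Eif4h: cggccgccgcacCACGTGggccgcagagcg
Eef2: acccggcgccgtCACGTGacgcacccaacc

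Libraries held between 14324700 and 21804907 counts. The count of Mettl5 covers the whole gene and does not single out the floxed exons. Its log2 fold change was 0.22, -0.18 and -0.04 in the 3 mouse comparisons with adjusted p of 0.874 to 0.973 (edgeR). The authors report that reads over the floxed exons were nearly absent in METTL5-cKO hearts, which counts of the whole gene cannot show. Levels are given as CPM, the counts per 1000000 of the TMM-scaled library size, and compare 1 gene between libraries. In NRVMs rat Mettl5 had 17.0 ± 0.773 CPM with AdGFP and 21.2 ± 1.76 CPM with AdMETTL5 (SD, n = 4, adjusted p = 0.00295 in edgeR), although the virus carries the human sequence. At 1 month the first library of each group held over 100 counts of the Y-linked gene Ddx3y and the others did not, whereas all 8 libraries did at 3 months and after TAC. The filter on low counts kept 62, 61, 61 and 60 members in the 4 tables. It removed Eef1akmt3 from every table, Eif2c5 and Eif4e1b (0 counts) and Eif4a3l1 from the mouse tables, and Eif4ebp3 at 3 months and after TAC. The first control library at 1 month stood apart in several members and is named beside each result it touched. Whole hearts mix cell types, so fewer cells of a type and less RNA per cell cannot be told apart. Cardiomyocyte markers were abundant in all mouse hearts, with a summed level of 29608 to 50568 CPM, and in AdGFP cells, with 30634 to 35391 CPM. The fibroblast list was also high in NRVMs (11660 to 12307 CPM with AdGFP). Of the 6 skeletal muscle markers, Myh1 and Myh4 were at 0 in all mouse libraries. The whole skeletal muscle list still summed to between 505 and 4999.5 CPM in mouse hearts.

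The elongation factors were the most abundant members of the heart. Levels of different genes are given as CPM per kilobase of annotated exon, and only for the mouse. The length joins the exons of all annotated transcripts of a gene. Eef1a1 shares 50-base stretches with pseudogenes listed as genes of their own, up to 37.1% with 1 of them. Ranks and ratios per kb are therefore approximate. Eef1a2 held the first place in all 6 mouse groups, with 360.4 CPM per kb in 3-month controls, followed there by Eef2 (226), Eef1a1 (114), Eif1 (110.1), Eif5a, whose protein carries hypusine (64.0), and the eIF3 subunit Eif3h (57.7). The scaffold Eif4g1 reached 29.7 CPM per kb in the same hearts, its antagonist Eif4ebp1 19.4 and the cap-binding Eif4e 8.68. Within single libraries, the ratio of Eef1a1 to Eef1a2 per kb was 0.795 ± 0.120 (SD, n = 4) in controls at 1 month, 0.324 ± 0.0915 at 3 months and 0.398 ± 0.0724 after TAC. The 1-month range of 0.684 to 0.941 lay above both others (0.251 to 0.442 and 0.325 to 0.496). Age, sex and experiment differed together between these tables, so their parts cannot be told apart and no test was made.

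**Figure D1:**
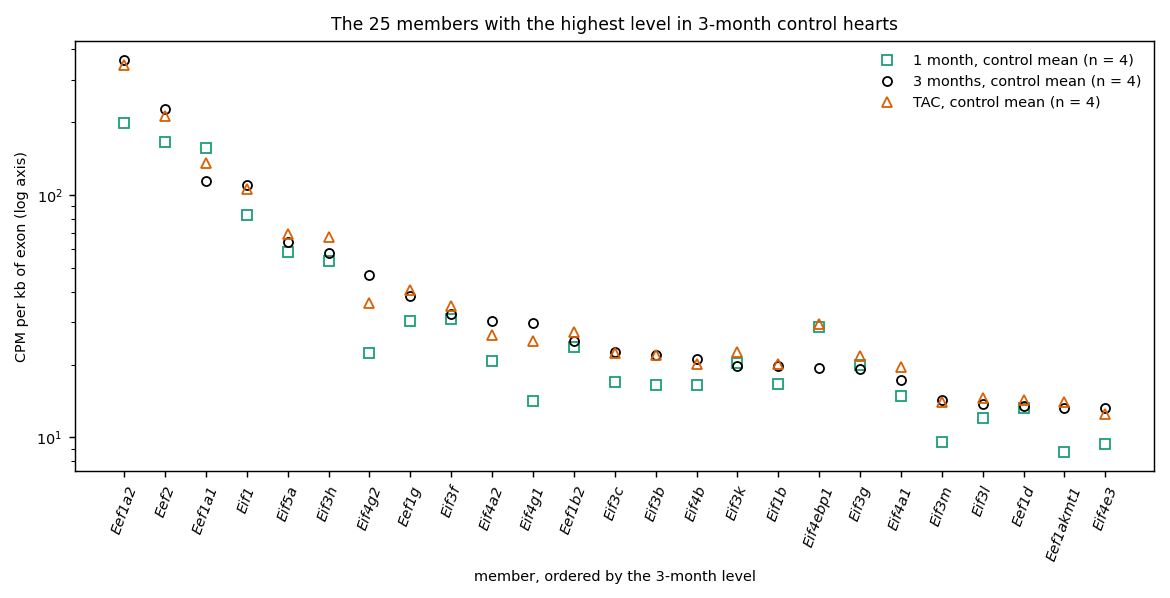
Mean level of the 25 most abundant members in control hearts, in CPM per kb of exon on a log axis, for the 1-month, 3-month and TAC tables (n = 4 libraries each, every table scaled by itself). Eef1a2, Eef2, Eef1a1 and Eif1 stand at the top, with Eef1a2 at 199 CPM per kb at 1 month and 360.4 at 3 months.

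At 1 month the members did not separate METTL5-KO hearts from controls. Of 62 members tested, 0 were called higher and 0 lower at an adjusted p under 0.05 (quasi-likelihood F-test of edgeR, Benjamini-Hochberg over all 16329 genes), against 0% and 0.00612% of all genes. DESeq2 called 0 as well, and at an unadjusted p under 0.05 edgeR marked 0 higher and 4 lower, against 2.12% and 2.45% of all genes. The median log2 fold change of the members was -0.05, beside -0.01 for all genes, and 12 of 14 eIF3 genes lay below 0 (median -0.10, 0 called). These values include the first control library, without which the median of the members was 0.05. The signs of the eIF3 genes without that library are not given here, so no shared fall is read from them. The 4 members with an unadjusted p under 0.05 were chosen for that value, and they come from different steps of initiation and from elongation. Eif4ebp3, a 4E-binding protein of very low level, had 0.587, 0.949, 0.724 and 0.941 CPM in controls and 0.549, 0.298, 0.441 and 0.291 CPM in METTL5-KO hearts, and shares 65.5% of its 50-base stretches with an overlapping gene. Eif5b, the GTPase that joins the subunits, had 147, 140.4, 167 and 123 CPM against 121, 109, 115 and 108 CPM. Neither gene overlapped between the groups, as for 0 members higher and 4 lower in all, against 1.52% and 1.49% of all genes. Their log2 fold changes were -0.996 (SE 0.295) and -0.35 (SE 0.115), with an adjusted p of 0.973 for each (edgeR). Eif2s2 (-0.20) and Eef2kmt (-0.38) made up the rest.

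The first control library set the 1-month values of several abundant members. Eif4ebp1 had 116, 52.3, 44.2 and 39.2 CPM in the control libraries and 56.4, 55.4, 47.7 and 43.3 CPM in METTL5-KO. Eef2 had 845, 445, 445 and 462 CPM against 429, 487, 591 and 489.6 CPM, and Eef1a1 had 511, 353, 372 and 331 CPM against 404, 391, 376 and 323 CPM. In each of the 3 genes the highest value was that of the first control library, and the other libraries of both groups overlapped. With that library left out, the log2 fold change turned from -0.32 to 0.17 for Eif4ebp1, from -0.14 to 0.15 for Eef2 and from -0.07 to 0.09 for Eef1a1. Eef1a2 (505, 416, 330.2 and 405 CPM against 331, 409.6, 509.8 and 521 CPM) had a log2 fold change of 0.10. Eif4e (26.9, 37.6, 33.2 and 33.7 CPM against 33.7, 34.9, 35.3 and 41.1 CPM) and Eif4g1 (93.6, 109, 97.8 and 113 CPM against 89.2, 102, 129 and 124 CPM) stood at 0.14 and 0.10, with overlapping groups in all 3.

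At 3 months the members again gave 0 higher and 0 lower calls among 61 tested, against 0.0488% and 0.0244% of all 16391 genes. DESeq2 called 1, Eif4ebp1, with an adjusted p of 0.0197 (against 0.327% of all genes higher and 0.272% lower), and 3 members had an unadjusted p under 0.05 in edgeR, 3 higher and 0 lower, against 3.62% and 3.43% of all genes. The median of the members was 0.03 and that of all genes 0.00, and 13 of 14 eIF3 genes lay above 0. Eif4ebp1, the 4E-binding protein that mTORC1 signalling releases from eIF4E, had 45.8, 40.8, 43.8 and 40.3 CPM in controls and 57.1, 60.9, 53.9 and 50.02 CPM in METTL5-cKO hearts. Every METTL5-cKO library lay above every control library, as in 4 members higher and 0 lower, against 2.19% and 2.04% of all genes. Its log2 fold change was 0.38 (SE 0.0889, adjusted p = 0.297 in edgeR), and the exact two-sided permutation p was 0.0286 (n = 4 per group), the smallest that 4 against 4 libraries can give. Summed cell type markers moved in the same libraries, with 46149 to 50568 CPM in controls against 41073 to 45882 CPM in METTL5-cKO for cardiomyocytes and 112 to 139 CPM against 141 to 187 CPM for macrophages, both without overlap. The sums of the other lists overlapped, 0 markers passed (edgeR), and their part in the values of the members was not tested. Eif2a, an alternative carrier of initiator tRNA, had 25.4, 23.3, 23.6 and 23.6 CPM against 29.2, 27.9, 26.3 and 26.6 CPM and did not overlap either, whereas Eef2k, the kinase that inhibits eEF2, did (22.8, 16.3, 20.7 and 18.3 CPM against 25.1, 26.2, 23.9 and 20.1 CPM).

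The other members named in every comparison overlapped between the genotypes at 3 months. Eef1a1 had 238, 294, 349 and 256 CPM in controls and 281, 335, 379 and 434 CPM in METTL5-cKO, at a log2 fold change of 0.33 (SE 0.157). Eef2 had 744, 668, 779.5 and 812 CPM against 885, 815, 953 and 795 CPM, at 0.20 (SE 0.0955), and the adjusted p was 0.738 for both genes (edgeR). Eef1a2 (787, 703, 659.9 and 855 CPM against 781, 716, 849.5 and 616 CPM) was at -0.02. Groups overlapped at -0.14 for Eif4e (63.1, 48.8, 43.0 and 53.7 CPM against 49.9, 49.3, 44.2 and 46.5 CPM) and at -0.11 for Eif4g1 (277, 172, 172 and 245 CPM against 244, 196, 212 and 149.5 CPM).

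After TAC, 8 of 61 members rose in METTL5-cKO hearts and 0 fell (edgeR, adjusted p under 0.05), which is 13.1% of the members against 6.57% of all 16340 genes higher and 6.1% lower. They were spread over the steps of translation: Eif1a, Eif5 and the eIF3 subunits Eif3a and Eif3h of the preinitiation complex, Eif4a1 and Eif4b of the helicase, the 4E-binding protein Eif4ebp1, and Eef1a1 of elongation. The members took 0.467% to 0.496% of the unscaled counts in control libraries and 0.524% to 0.615% in METTL5-cKO libraries, without overlap. Part of this difference is the shift of 0.15 that library-size scaling gave to all genes. Changes were small, and 0 members passed an absolute log2 fold change of 1, which 2.9% of all genes did. The median over the members was 0.10, beside 0.00 for all genes, and groups did not overlap for 14 members higher and 0 lower, against 9.41% and 9.16% of all genes. DESeq2 called 13 higher and 1 lower, against 9.05% and 7.81% of all genes, and at an unadjusted p under 0.05 edgeR marked 18 higher and 4 lower, against 15.2% and 15.8%. Scaling by library size alone shifted all genes by 0.15 and called 18 members higher and 0 lower, against 12.6% and 3.21% of all genes.

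**Figure D2:**
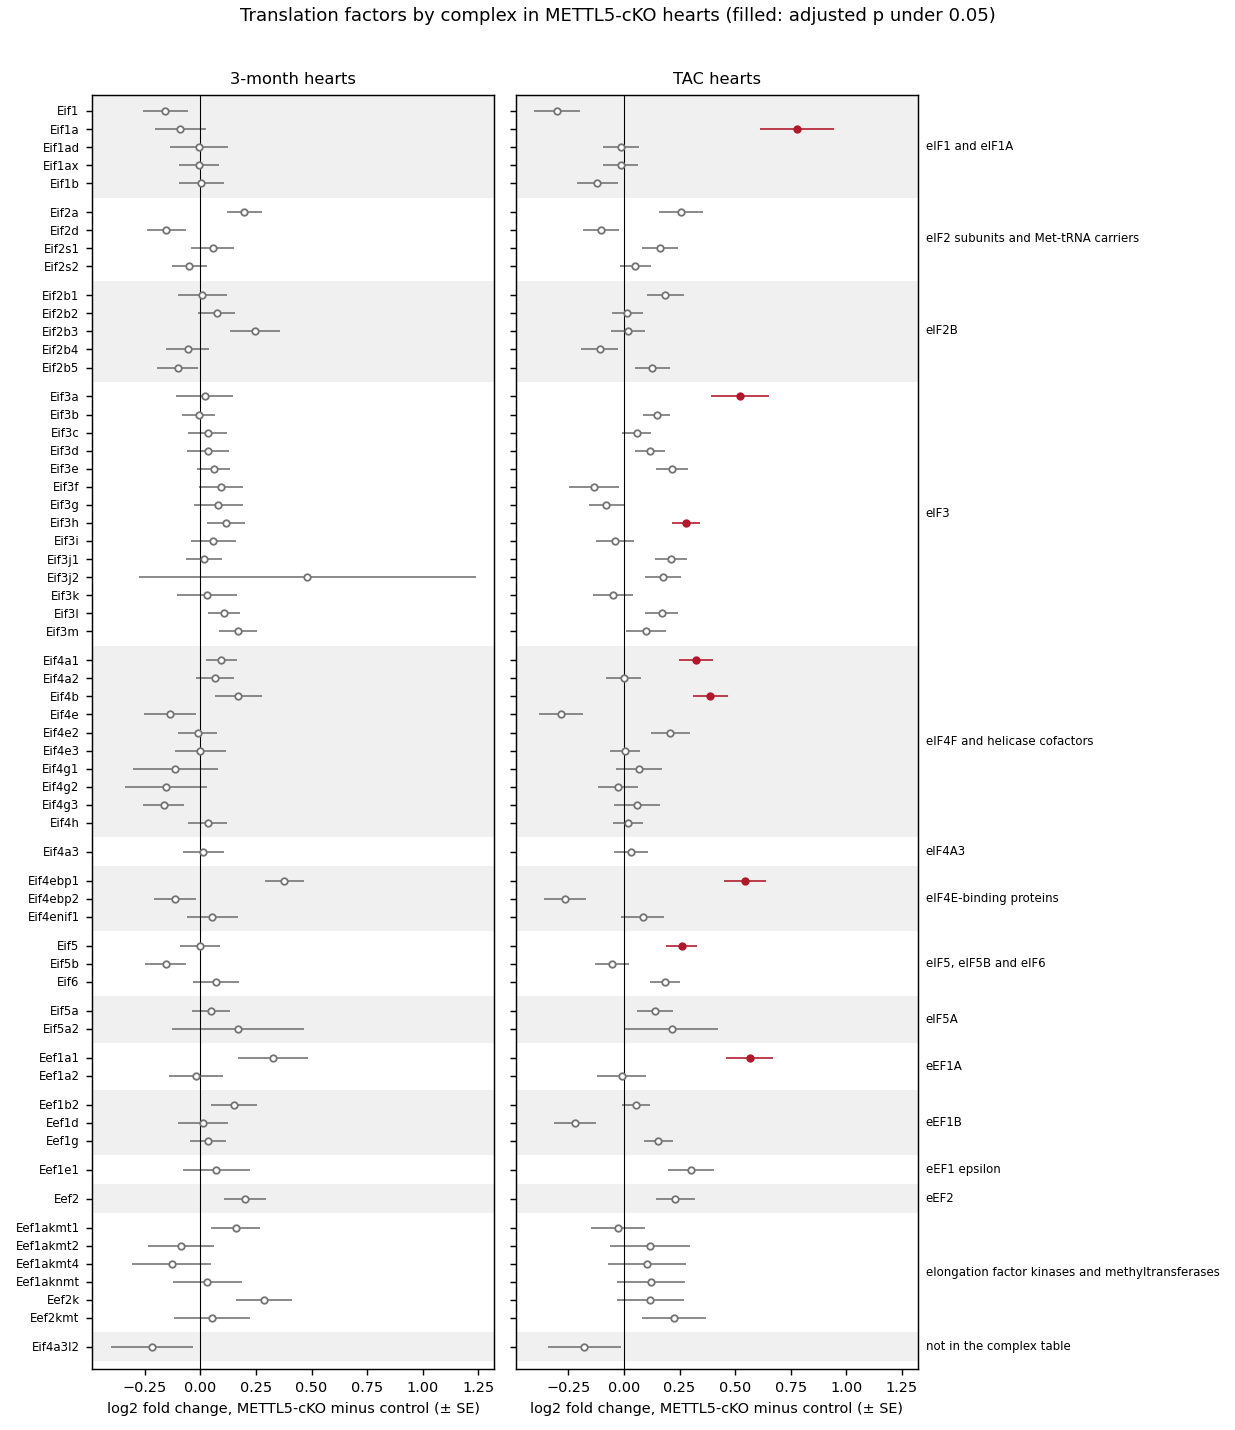
Log2 fold change of METTL5-cKO against control hearts for each member tested, grouped by complex, at 3 months (left) and after TAC (right); points are edgeR estimates from 4 against 4 libraries with their SE, and filled points have an adjusted p under 0.05. All points at 3 months are open, and the 8 filled points after TAC lie between 0.26 and 0.78, to the right of 0.

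Eif4ebp1 had the smallest adjusted p of the members after TAC. The gene (GRCm38 chromosome 8, 27260329 to 27276674, plus strand) had 68.9, 60.5, 68.8 and 59.3 CPM in controls and 96.8, 106, 89.3 and 83.1 CPM in METTL5-cKO hearts. The lowest METTL5-cKO library exceeded the highest control, and the log2 fold change was 0.54 (SE 0.0952, adjusted p = 0.0127 in edgeR). It was the 1 member of the 8 that passed in every fit that left out a library, with a largest adjusted p of 0.0479 among these fits. Eif4ebp2, its relative, went the other way without passing (48.8, 57.8, 55.1 and 55.6 CPM against 41.7, 44.3, 42.3 and 52.7 CPM, log2 fold change -0.26, adjusted p = 0.0909 in edgeR), and Eif4ebp3 held 3 to 10 counts per library and was not tested. Eif4enif1, the transporter of eIF4E into the nucleus, was at 0.08.

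Among the cap-binding and helicase genes, 2 of 10 tested rose and 0 fell. Eif4b, which stimulates the helicase (chromosome 15, 102073773 to 102097173), had 94.0, 91.5, 85.0 and 90.1 CPM in controls and 119, 129, 121 and 104 CPM in METTL5-cKO. Eif4a1, a gene of the eIF4A helicase (chromosome 11, 69666936 to 69672423), had 81.5, 85.5, 89.5 and 82.5 CPM against 112, 113, 104 and 95.1 CPM. Neither gene overlapped between the groups, with log2 fold changes of 0.39 (SE 0.0803, adjusted p = 0.0184 in edgeR) and 0.32 (SE 0.0767, adjusted p = 0.0281). Eif4a1 shares 33.3% of its 50-base stretches with pseudogenes and small genes, and its log2 fold change was 0.34 when its copies were added. Eif4e itself had 56.2, 50.6, 46.9 and 56.7 CPM against 37.9, 41.5, 49.1 and 44.1 CPM, and 1 METTL5-cKO library reached into the control range (log2 fold change -0.28, SE 0.0988, adjusted p = 0.0860 in edgeR). Eif4g1 (199, 194, 145 and 195 CPM against 184, 199, 198 and 187 CPM) overlapped, at 0.07.

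In the preinitiation complex, Eif1a, the gene for a small factor of start-codon scanning, had the largest log2 fold change of the members called. Its values were low, at 8.67, 10.00, 8.57 and 6.44 CPM in controls and 17.6, 15.3, 13.9 and 10.9 CPM in METTL5-cKO hearts, without overlap (log2 fold change 0.78, SE 0.167, adjusted p = 0.0206 in edgeR). Its paralog Eif1ax was at -0.01, and Eif1, the partner of eIF1A in scanning, had 198, 233, 224 and 238 CPM against 169, 171, 169 and 217 CPM with an adjusted p of 0.0841 (edgeR). The log2 fold change of Eif1 was -0.30, and it was the 1 member that DESeq2 called lower. Of the 14 eIF3 genes, 2 rose and 10 lay above 0 (6 rose and 14 lay above 0 under library-size scaling). Eif3h, a subunit with an MPN domain (chromosome 15, 51786558 to 51865523), had 109.99, 108, 108 and 109 CPM in controls, a very narrow range, and 139, 133, 128 and 127 CPM in METTL5-cKO, at 0.28 (SE 0.0623, adjusted p = 0.0230 in edgeR). Eif3a, the largest subunit (chromosome 19, 60761117 to 60790658), had 79.7, 84.7, 69.99 and 76.2 CPM against 131, 116, 116 and 83.6 CPM, and its lowest METTL5-cKO library lay inside the control range. Eif3a was at 0.52 (SE 0.130, adjusted p = 0.0324) and Eif5, the GTPase activator of eIF2, at 0.26 (SE 0.0713, adjusted p = 0.0431 in edgeR), with 73.3, 83.5, 77.0 and 79.8 CPM against 97.3, 98.8, 89.0 and 90.2 CPM and no overlap. None of the 4 eIF2 and carrier genes and none of the 5 eIF2B genes tested passed, and among them Eif2a had 24.6, 24.7, 20.7 and 24.7 CPM against 30.1, 29.8, 29.7 and 23.8 CPM, at 0.26 (adjusted p = 0.112 in edgeR).

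In elongation, Eef1a1 rose and its muscle paralog did not. Eef1a1 (chromosome 9, 78478449 to 78489151, minus strand) had 303, 346, 382 and 326 CPM in controls and 521, 535, 530.2 and 422 CPM in METTL5-cKO hearts, without overlap (log2 fold change 0.57, SE 0.105, adjusted p = 0.0144 in edgeR). It shares 60.6% of its 50-base stretches with pseudogenes, and with these copies added the log2 fold change was 0.56. Eef1a2 had 777, 722, 643 and 739 CPM against 699.7, 761, 595 and 805 CPM, with full overlap and a log2 fold change of -0.01 (SE 0.109). The difference between the paralogs was not tested by edgeR, and their ratio within libraries is given further on. Eef2 had 657, 768, 653 and 742 CPM against 747, 875, 844 and 846 CPM, at 0.23 (SE 0.0897, adjusted p = 0.114 in edgeR), and passed with DESeq2 (adjusted p = 0.0205). None of the 3 eEF1B genes passed, and among them Eef1g (0.15) and Eef1d (-0.22) stood on opposite sides of 0.

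**Figure D3:**
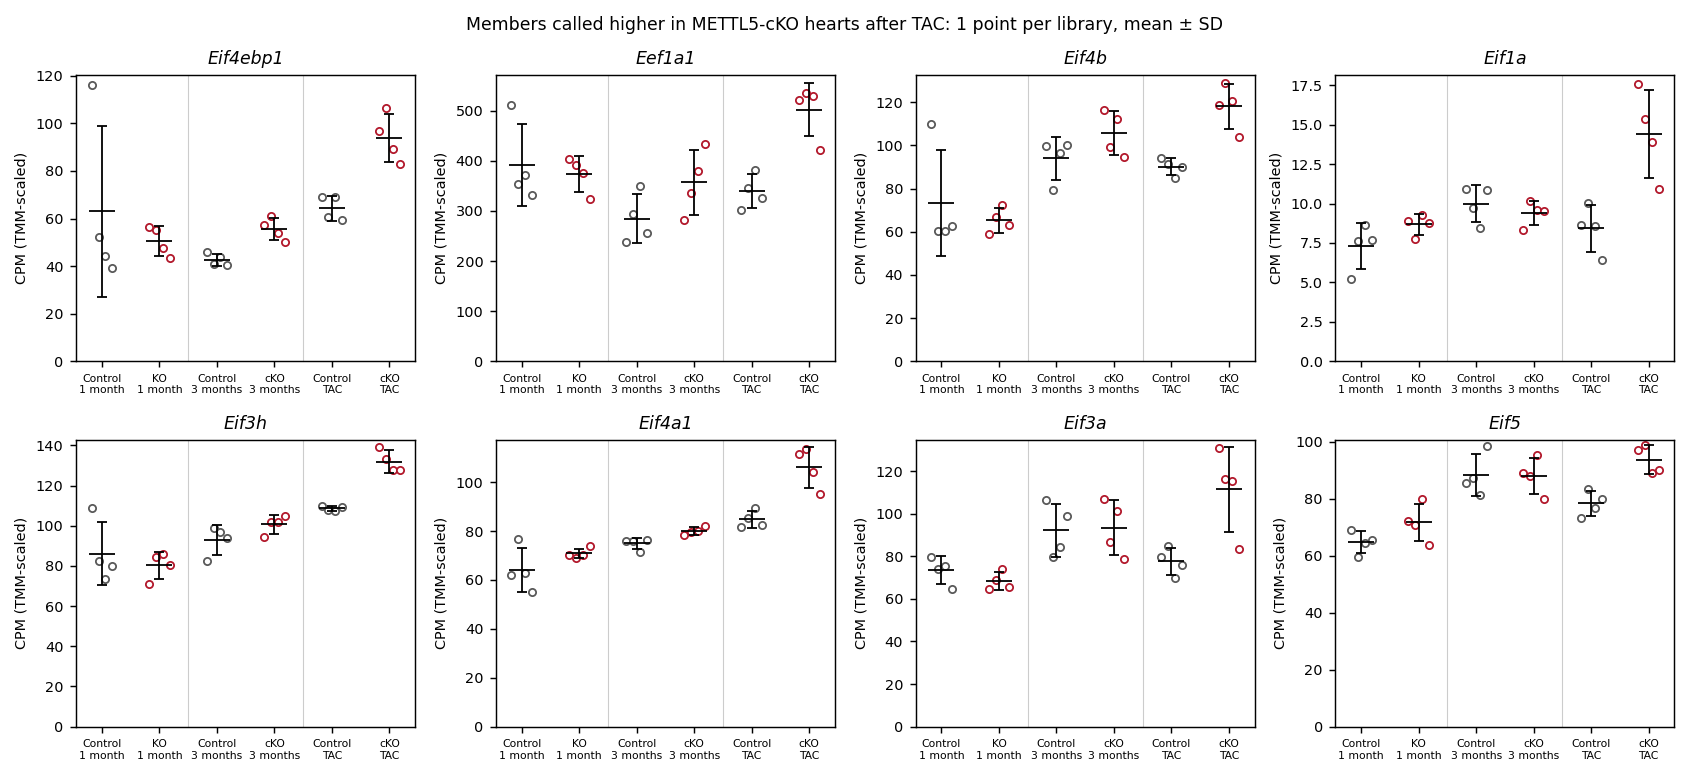
CPM of the 8 members called higher in METTL5-cKO hearts after TAC, in all 6 mouse groups; each open point is a library, bars give the mean and SD (n = 4), grey points are controls and red points METTL5-KO or METTL5-cKO, and each pair of groups was scaled by itself. After TAC the groups overlap only in Eif3a, and the fourth METTL5-cKO library is the lowest in Eef1a1 at 422 CPM.

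Single libraries moved the count of calls after TAC, among the members and among all genes. The fourth METTL5-cKO library was the lowest of its group in 7 of the 8 members called, all but Eif5. Without it, 11 members were called higher and 3 lower (Eef1d, Eif1 and Eif4ebp2), against 11.8% and 11.6% of all genes. Without the fourth control library 1 member was called higher and 0 lower, against 1.74% and 1.13% of all genes. Leaving out any of the others gave 2 to 5 members higher and 0 lower. Calls among all genes in these fits ran from 332 higher and 204 lower of 16551 genes to 857 and 731 of 16641. Of the 8 fits that left out a library, Eef1a1 passed in 7, Eif1a and Eif4b in 5, Eif3h in 4, Eif4a1 in 2, and Eif3a and Eif5 in 1. The same METTL5-cKO library also had the lowest fibroblast markers of its group. The fibroblast list summed to 807, 644, 782 and 626 CPM in controls and to 3053, 2114, 2071 and 973 CPM in METTL5-cKO, with 7 of its 9 genes higher (edgeR). The cardiomyocyte list ranged from 43446 to 48489 CPM in controls and from 33849 to 41754 CPM in METTL5-cKO, with 3 of 11 genes lower. The endothelial list had 4 of 7 genes lower, the macrophage list 2 of 7 higher and the skeletal muscle list 1 of its 4 tested genes higher, and 0 smooth muscle and lymphocyte markers passed. The skeletal muscle list summed to 2420.5 to 2833.5 CPM in controls and to 3875 to 4999.5 CPM in METTL5-cKO. The endothelial list summed to 695 to 830 CPM in controls and to 471 to 635 CPM in METTL5-cKO. Neither sum overlapped between the groups. The part of these cell types in the changes of the members was not tested.

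Whether the genotype acted differently after TAC than at 3 months was tested in 1 model of all 16 libraries. Of 62 members tested, 0 passed in either direction, against 0.00586% higher and 0% lower of 17070 genes, so a difference was not shown for any member by edgeR. At an unadjusted p under 0.05 there were 5 members with a higher and 0 with a lower effect after TAC, against 6.61% and 5.17% of all genes, and DESeq2 called 1 member, Eif1a, against 0.879% of all genes higher and 0.367% lower. Eif1a had the largest difference, 0.88 on the log2 scale (SE 0.213, adjusted p = 0.14 in edgeR), from -0.09 at 3 months to 0.78 after TAC. Eif3a differed by 0.52 and Eif4ebp1 by 0.18. Without the fourth METTL5-cKO library after TAC, 2 members passed with a higher effect and 0 with a lower one, against 2.14% and 1.77% of all genes, a share of members near that of all genes.

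In NRVMs the members changed in both directions in shares near those of all genes, so the counts do not set them apart. Of 60 members tested, 21 rose and 15 fell (35% and 25%), beside the 27.1% higher and 25.7% lower of all 15041 genes (edgeR, adjusted p under 0.05). The median of the members was -0.03, beside 0.00 for all genes, and 0 members passed an absolute log2 fold change of 1, which 5.85% of all genes did. The members took 1.25% to 1.31% of the unscaled counts with AdGFP and 1.35% to 1.41% with AdMETTL5. These shares carry the shift of 0.13 that library-size scaling gave to all genes, so no rise of the members is read from them. Groups did not overlap for 18 members higher and 14 lower, against 25.2% and 23.2% of all genes, and DESeq2 called 20 higher and 17 lower, against 22.9% and 23.1%. Scaling by library size alone moved all genes by 0.13 and changed the split to 28 higher and 7 lower, against 39% and 15.6% of all genes, so that the fall of Eef1a1, Eef1d, Eif2b5, Eif3g, Eif3k, Eif3m, Eif3el1 and Eif4e2 no longer passed. Libraries of AdMETTL5 cells held 14324700 to 14642431 counts and those of AdGFP cells 17344430 to 18085339. Cardiomyocyte markers fell with AdMETTL5 in all 10 genes tested, from 30634 to 35391 CPM down to 11532 to 12660 CPM, and fibroblast markers fell in 7 of 8. The endothelial list had 1 of 5 genes tested higher, the macrophage list 2 of 4 lower, the smooth muscle list 2 of 4 higher and the skeletal muscle list 4 of 5 lower, while the lymphocyte markers were at 0. The part of these changes in those of the members was not tested. Of the 36 calls, 28 held in each of the 8 fits that left out a library, while Eif4a1 and Eif3d passed in 2 of these fits, Eif4ebp2, Eif3g and Eif4e2 in 3, Eif4g3 and Eif3k in 5 and Eef1akmt4 in 6.

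**Figure D4:**
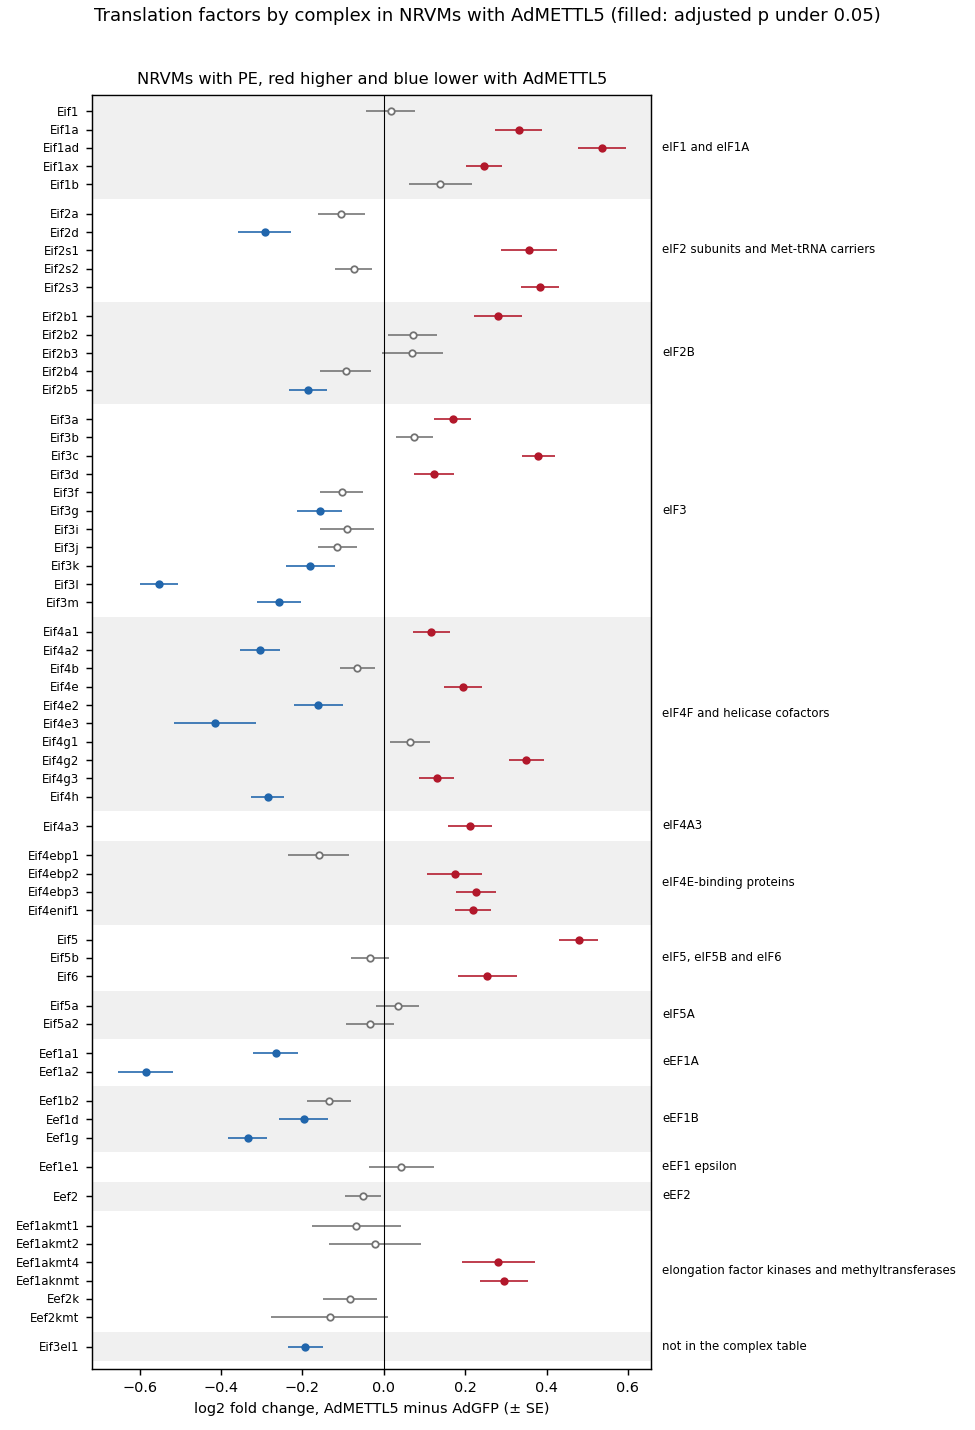
Log2 fold change of AdMETTL5 against AdGFP NRVMs under PE for each member tested, grouped by complex (edgeR estimate and SE, 4 against 4 libraries); filled red points rose and filled blue points fell at an adjusted p under 0.05. Both eEF1A genes lie to the left of 0, all 5 genes of the eIF1 and eIF1A group lie to the right, and eIF3 subunits lie on both sides, from -0.55 for Eif3l to 0.38 for Eif3c.

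Factors of the start codon and of the initiator tRNA were among the risen members. In the eIF1 and eIF1A group 3 of 5 rose and 0 fell (5 and 0 under library-size scaling), with Eif1a at 71.2, 77.3, 69.8 and 63.6 CPM with AdGFP and 88.1, 91.8, 88.4 and 86.4 CPM with AdMETTL5 (log2 fold change 0.33, SE 0.0575). Eif1ad, named for its eIF1A domain, had 26.7, 29.5, 28.8 and 27.9 CPM against 41.1, 41.6, 43.5 and 37.5 CPM, the largest log2 fold change among the members that rose (0.54, SE 0.0591, adjusted p = 1.34e-05 in edgeR). Eif5 had 155, 164, 151 and 149.7 CPM against 209.8, 206, 223 and 224 CPM (0.48, SE 0.0472, adjusted p = 5.46e-06 in edgeR). None of these 3 genes overlapped between the groups. The eIF2 subunits Eif2s1 (0.36) and Eif2s3 rose, the latter from 168, 177, 166 and 166 CPM to 224, 233, 218 and 208 CPM (0.38, SE 0.0470), whereas the subunit Eif2s2 was at -0.07 (adjusted p = 0.193 in edgeR). The alternative carrier Eif2d fell (-0.29). The exchange factor split too, with Eif2b1 at 0.28 and Eif2b5, its catalytic subunit, at -0.19, the latter lost under library-size scaling.

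Subunits of eIF3 moved apart. Of 11 tested, 3 rose and 4 fell, and under library-size scaling 4 rose and 1 fell. The 11 leave out Eif3e and Eif3h, which had no values in the rat, and Eif3el1, which was kept outside this group. Eif3el1 fell as well (-0.19, adjusted p = 0.00248 in edgeR), a call lost under library-size scaling. Eif3c, a large subunit with a PCI domain, had 381, 383, 367 and 377 CPM with AdGFP and 500.3, 479, 490.4 and 491 CPM with AdMETTL5, at a log2 fold change of 0.38 (SE 0.0401, adjusted p = 9.22e-06 in edgeR). Eif3l, another PCI-domain subunit, had 166, 155, 161 and 159 CPM against 113, 107, 102 and 115 CPM, at -0.55 (SE 0.0478, adjusted p = 1.89e-06 in edgeR), and it fell under every scaling. Neither gene overlapped between the groups. Eif3a (0.17) and Eif3d (0.12, adjusted p = 0.0499 in edgeR) also rose, the call of Eif3d being lost with DESeq2 size factors (adjusted p = 0.0596 in edgeR), and Eif3m (-0.26), Eif3k (-0.18) and Eif3g (-0.16) also fell.

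Cap-binding and helicase genes were split as well, with 4 of 10 higher and 4 lower (5 and 3 under library-size scaling). Eif4g2, an eIF4G relative without the binding site for eIF4E, had 627, 633, 602 and 608 CPM with AdGFP and 778, 793, 817 and 763 CPM with AdMETTL5 (0.35, SE 0.0436, adjusted p = 3.40e-05 in edgeR). The helicase paralogs stood on opposite sides of 0. Eif4a2 fell from 256, 252, 247 and 239 CPM to 188, 194, 214 and 208 CPM (-0.30, SE 0.0502), and Eif4a1 was near the threshold, with 379.9, 387, 356 and 352 CPM against 399.5, 406, 401 and 392 CPM (0.12, SE 0.0453, adjusted p = 0.0466 in edgeR, and 0.0556 with DESeq2 size factors). Their helper Eif4h fell without overlap, from 359.7, 350.5, 336 and 342 CPM to 283, 281, 288 and 288 CPM (-0.28, SE 0.0407, adjusted p = 1.02e-04 in edgeR), and the cap-binding paralog Eif4e3 fell as well (-0.42). Eif4e rose from 83.4, 83.7, 77.6 and 76.0 CPM to 90.4, 94.2, 92.5 and 89.99 CPM (0.19, SE 0.0468, adjusted p = 0.00397 in edgeR). Eif4g1 had 259.7, 285, 262 and 280.3 CPM against 277, 271, 293 and 296 CPM and overlapped (0.06, adjusted p = 0.290 in edgeR), but was called higher under library-size scaling at 0.20.

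Of the 4 genes in the group of 4E-binding proteins, 3 rose and 0 fell, also under library-size scaling, but 2 rose in most fits that left out a library. These were Eif4ebp2 (0.17), Eif4ebp3 (0.23) and Eif4enif1 (0.22), the first of which passed in 3 of 8 such fits and not without the low-count filter, while Eif4ebp1 did not pass, with 289.7, 261, 239 and 248 CPM against 243, 259, 215 and 211 CPM (-0.16, SE 0.0757, adjusted p = 0.0940 in edgeR). Leaving out the second AdMETTL5 library brought Eif4ebp1 to -0.22 with an adjusted p of 0.0337. Eif6, which keeps the large subunit from joining, rose (0.25), as did Eif4a3 (0.21), the helicase of the exon junction complex.

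The genes of eEF1A, eEF1B, Eef1e1 and Eef2 fell or did not pass, although under library-size scaling Eef1e1 rose and the falls that passed were those of Eef1a2 and Eef1g. Eef1a2 fell from 587, 559, 498 and 567 CPM to 363, 372, 331 and 408 CPM, the largest fall among the members (-0.59, SE 0.0686, adjusted p = 2.16e-05 in edgeR). Eef1a1 fell from 1560.4, 1468, 1693 and 1630.4 CPM to 1325, 1298, 1273 and 1388 CPM (-0.27, SE 0.0553, adjusted p = 0.00156 in edgeR), a call lost under library-size scaling at -0.13. Eef1g, a subunit of eEF1B, fell from 1027, 1001, 928 and 934 CPM to 781, 760.2, 753 and 789.8 CPM (-0.34, SE 0.0487, adjusted p = 1.15e-04 in edgeR). The groups of these 3 genes did not overlap. Eef2, the member with the highest CPM of those printed, had 2676, 2655, 2687 and 2745 CPM against 2639, 2579, 2579 and 2589.5 CPM and differed by -0.05 (SE 0.0445, adjusted p = 0.356 in edgeR), with a sign that turned under library-size scaling. The methyltransferase genes Eef1aknmt (0.29) and Eef1akmt4 (0.28) rose.

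Ratios of counts within a library need no scaling between libraries, and 3 pairs were taken in the 4 comparisons after their fold changes had been seen. The exact two-sided permutation test over the 70 labellings cannot go below 0.0286 with 4 against 4 libraries (n = 4), and over the 12 ratios the adjusted p did not go below 0.0686, so no ratio passed. The ratio of Eif4ebp1 to Eif4e was 0.833 ± 0.132 in 3-month controls and 1.17 ± 0.0728 in METTL5-cKO (SD, n = 4). After TAC it was 1.23 ± 0.175 in controls and 2.20 ± 0.409 in METTL5-cKO. In NRVMs it was 3.23 ± 0.178 with AdGFP and 2.53 ± 0.224 with AdMETTL5. In these 3 comparisons the groups did not overlap, with higher ratios in METTL5-cKO and lower ratios with AdMETTL5 (log2 differences 0.50, 0.83 and -0.36, exact p = 0.0286 and adjusted p = 0.0686 for each). At 1 month the difference was -0.33 and turned to 0.11 without the first control library, whose ratio of 4.32 lay far above the 1.16 to 1.39 of the other controls.

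The paralog ratios moved less evenly. Eef1a1 to Eef1a2 was 0.476 ± 0.0867 in controls after TAC and 0.716 ± 0.151 in METTL5-cKO (SD, n = 4), with overlapping groups (log2 difference 0.58, exact p = 0.0571, adjusted p = 0.098). In NRVMs it was 2.89 ± 0.358 and 3.598 ± 0.195 without overlap (0.32, exact p = 0.0286), where both genes fell and Eef1a2 by more. Eif4a1 to Eif4a2 was 0.602 ± 0.0651 and 0.751 ± 0.0751 after TAC (0.32, exact p = 0.0571), and 1.48 ± 0.0381 and 1.99 ± 0.133 in NRVMs (0.42, exact p = 0.0286). At 3 months both ratios overlapped between the genotypes (0.35 and 0.03).

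**Figure D5:**
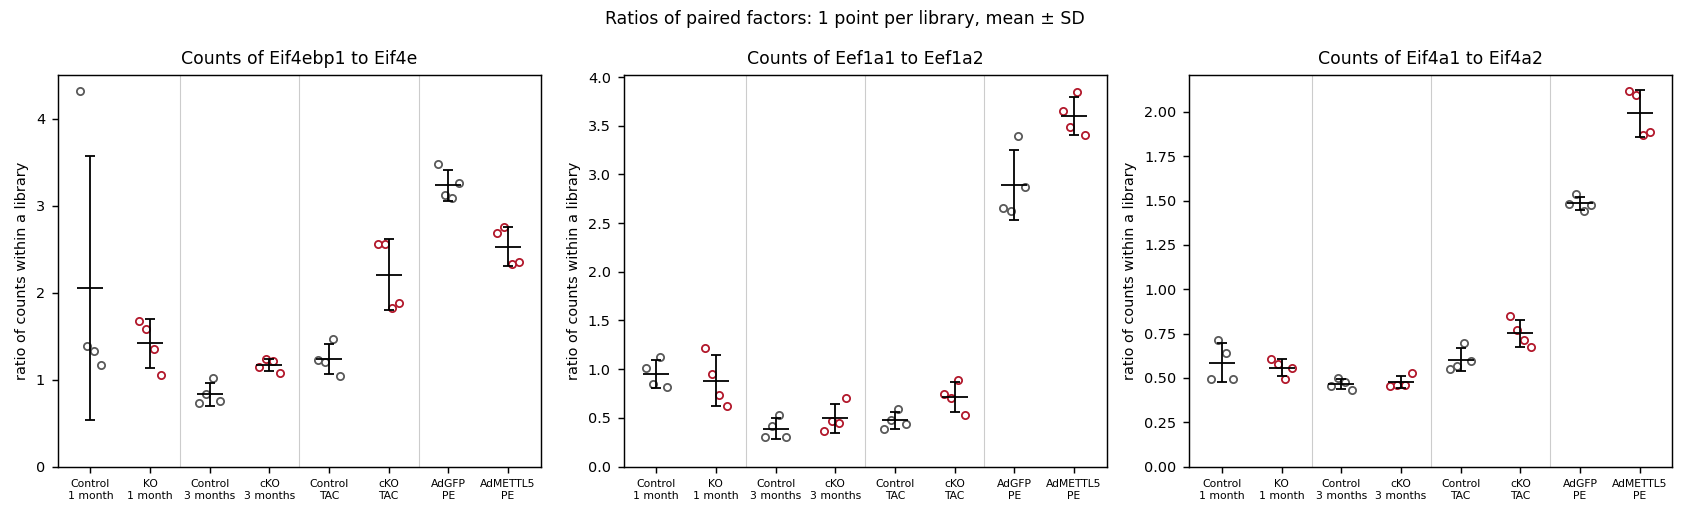
Ratio of counts within a library for Eif4ebp1 to Eif4e, Eef1a1 to Eef1a2 and Eif4a1 to Eif4a2, in all 8 groups; each open point is a library (grey control, red treated), with the mean and SD (n = 4). The groups of the first ratio do not overlap at 3 months, after TAC and in NRVMs, and the first control library at 1 month stands alone at 4.32.

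The 8 members that rose in METTL5-cKO hearts after TAC can be set beside their values in NRVMs, from separate samples of another species. Eif3h was not matched in the rat table. Of the other 7, the AdMETTL5 cells showed 4 higher (Eif5 0.48, Eif1a 0.33, Eif3a 0.17 and Eif4a1 0.12, the last in 2 of 8 fits that left out a library), 1 lower (Eef1a1 -0.27) and 2 that did not pass (Eif4b -0.06 and Eif4ebp1 -0.16). Of all genes in the NRVM comparison 27.1% rose and 25.7% fell, and these 7 members were not tested as a set. Eif4e was at -0.28 without passing after TAC and rose by 0.19 in NRVMs.

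Other genes of the pathway, from lists kept apart from the members, gave calls in hearts after TAC and in NRVMs. At 1 month and at 3 months 0 of the genes in the 5 lists passed in edgeR. After TAC 3 of 40 rose (7.5%, against 6.57% of all genes) and 0 fell (against 6.1%), namely Pabpc4 (0.30), a poly(A)-binding protein that contacts eIF4G, Mknk2 (0.40), a kinase of eIF4E, and Ppp1r15a (0.82), which directs the removal of phosphate from eIF2. In NRVMs 14 of 40 rose and 6 fell (35% and 15%), against 27.1% and 25.7% of all genes. There, 4 of 6 genes for eIF2 kinases and their phosphatase subunits rose, led by Eif2ak2 (1.81), the kinase activated by double-stranded RNA, and Ppp1r15a (0.51). Among mTORC1 and MNK genes 4 of 11 rose and 1 fell, with Mknk2 (0.41) and Rps6kb2 (0.34) first. Of 9 genes of reinitiation, termination and recycling, 4 rose and 2 fell, Etf1 (0.32) and Pelo (0.40) among the risen. Of 8 genes that make hypusine and diphthamide, the modifications of eIF5A and eEF2, 2 rose and 2 fell, with Dph2 (0.38) and Dph5 (-0.48) first. Of 6 poly(A)-binding proteins and partners, 1 fell (Paip2, -0.18). Library-size scaling changed these counts in NRVMs to 5 and 0 for the eIF2 list and 5 and 1 for mTORC1 and MNK. They became 6 and 0 for reinitiation, 4 and 1 for hypusine and diphthamide and 2 and 0 for the poly(A) list. Over the 5 lists this made 55% higher and 5% lower, against 39% and 15.6% of all genes under that scaling. After TAC the same scaling called 9 of 40 genes higher (22.5%) and 0 lower, against 12.6% and 3.21% of all genes.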

How the data were processed

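Gene tables were analysed for 24 mouse heart libraries and 8 NRVM libraries, with 4 libraries in each of 8 groups, and the members and lists were chosen with earlier results of these data known. The authors prepared RNA with Trizol, sequenced it on a BGI instrument, aligned reads with HISAT2 2.0.4 and assembled them with StringTie 2.1.4 on GRCm38 or Rnor_6.0, and the submitters' notes also name DESeq2 1.4.5. They deposited the result as estimated counts per gene, which need not be whole and were rounded here. Strand use and trimming are not given in the sources used here.

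Each table was fitted by itself with edgeR 4.0.16 in R 4.3.3 (filterByExpr with a minimum count of 10 and total of 15, TMM, quasi-likelihood test of treated against control, adjustment over all genes, threshold 0.05), and the 3-month and TAC tables were also fitted together with an interaction term. DESeq2 1.42.0, DESeq2 size factors in edgeR, library-size scaling, at least 10 counts in every library, an absolute log2 fold change above 1, unadjusted p, no filter, a replicate block and leaving out each library were tried as alternatives. Adding the counts of genes that share 50-base stretches, and the ratios with their single-library checks, were chosen after seeing the data. Named were 6 members in every comparison (Eef1a1, Eef1a2, Eef2, Eif4e, Eif4g1, Eif4ebp1) and up to 6 members per direction with the smallest adjusted p among those called. Members described beside these, those with an unadjusted p under 0.05 included, were picked after their values were seen. Scripts were tested on simulated data, in which all genes of a comparison had the same spread. An absolute log2 change of 0.5 was recovered in 7 of 102 changed genes at 1 month, 23 of 105 at 3 months and 23 of 95 after TAC. For the interaction it was recovered in 2 of 106 and in NRVMs in 94 of 97. A lack of calls in hearts therefore does not show a lack of changes of that size. The members had a smaller median SE than all genes (0.131 against 0.175 at 1 month, 0.101 against 0.157 at 3 months). After TAC it was 0.0846 against 0.134. Recovery for the members themselves was not simulated and may differ. Column names of the 3-month, TAC and NRVM tables gave the group but not the sample, so library numbers there follow the column names only. The smallest chi-square between libraries of a group was 2.16 per degree of freedom, so none was counted as a repeat. The labels do not state separate animals or cultures, so p-values measure the spread between libraries, which may be technical. Libraries held 14324700 to 21804907 counts. The promoter windows run from 250 bases before to 50 after a RefSeq start on GRCm38.p6.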

Additional observations from a re-analysis of the deposited data

Results flagged for a closer look

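Among 100 sets of 4 libraries, 6 held a library far from the other 3 by Dixon's test at 95%, about the 1 in 20 that chance flags. In the first control library at 1 month Eef2 had 845 CPM (others 445 to 462), Eif4ebp1 had 116 CPM (others 39.2 to 52.3), and the ratio of Eif4ebp1 to Eif4e was 4.32 (others 1.16 to 1.39). The members took 0.604% of that library's unscaled counts, against 0.291% to 0.465% in the other 1-month libraries. After TAC, Eef1a1 had 422.0 CPM in the fourth METTL5-cKO library (others 521 to 535), and Eif4g1 had 145 CPM in the third control library (others 194 to 199). At 3 months the ratio of Eif4a1 to Eif4a2 was 0.528 in the fourth METTL5-cKO library (others 0.455 to 0.462).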

How the results depend on the processing

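After TAC, the count of 8 members called became 14 with DESeq2 (13 higher and 1 lower), 18 with library-size scaling, 6 without the filter, 22 at an unadjusted p and 0 above an absolute log2 fold change of 1. Of all 30075 genes without the filter, 641 were called higher and 411 lower. Leaving out a library gave 1 (without the fourth control library) to 14 calls (without the fourth METTL5-cKO library), and adding shared copies gave 9. With the copies added, 1067 of all 16325 genes were called higher and 995 lower. Of the 8 members, 1 (Eif4ebp1) was called in every fit that left out a library, and 6 in all of DESeq2, both other scalings, both other filters and the added copies. For all genes, library-size scaling moved the calls after TAC from 1074 higher and 997 lower to 2057 and 525, and those in NRVMs from 4082 and 3867 to 5869 and 2344. The count at 3 months became 1 with DESeq2 and 3 at an unadjusted p, that at 1 month 4 at an unadjusted p, and that of the interaction 1 with DESeq2, 5 at an unadjusted p and 0 to 2 with a library left out. In NRVMs it became 0 above an absolute log2 fold change of 1 and ranged from 31 to 35 with a library left out. Calls among all genes in these fits ran from 3657 to 3953 higher and from 3436 to 3776 lower. Of the 36 member calls, 23 held in all fits other than the fold threshold.

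The median of the members moved to 0.084 (3 months), 0.24 (TAC) and 0.11 (NRVMs) under library-size scaling. With a library left out it ran from -0.081 to 0.048 at 1 month and from -0.040 to 0.013 in NRVMs. At 1 month the ranges with a library left out crossed 0 for Eef1a1 (-0.14 to 0.089), Eef2 (-0.23 to 0.15), Eif4ebp1 (-0.48 to 0.17) and the ratio of Eif4ebp1 to Eif4e (-0.52 to 0.11), each positive without the first control library, and for the ratios of Eef1a1 to Eef1a2 (-0.31 to 0.012) and Eif4a1 to Eif4a2 (-0.13 to 0.050, with a positive value of 0.0044 as well). Eef1a2 was at 0.032 (3 months) and 0.13 (TAC) under library-size scaling, and after TAC at 0.0063 with DESeq2 and 0.0033 without the filter. With a library left out, Eef1a2 ran from -0.10 to 0.058 at 3 months and from -0.065 to 0.073 after TAC, Eif4g1 from -0.22 to 0.028 and from -0.018 to 0.12, and the 3-month ratio of Eif4a1 to Eif4a2 from -0.022 to 0.062. In NRVMs Eef2 was at 0.083 under library-size scaling. The cause of these moves was not tested.

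At 1 month the numbers of the libraries are shared by both groups, but deviations of same-numbered libraries correlated at 0.24, 0.12, -0.11 and 0.08, so the numbers were not taken as pairs; with the replicate block 0 members were called and 3 had an unadjusted p under 0.05. No paired analysis was possible because the columns of the 3-month, TAC and NRVM tables carry no numbers that match the labels.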
